A study of Homo sapiens with 2 samples.

Results

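The mRNA levels of 8 genes of the BCL2 family were compared between cisplatin-treated control and FZR1 ko cells. The genes were listed by name, with earlier results of these data known, and the rule uses no measured value. They are 5 anti-apoptotic guardians (BCL2, BCL2L1, MCL1, BCL2L2 and BCL2A1) and 3 pore formers (BAX, BAK1 and BOK). All 8 had a row among the 23033 genes with a value. Both libraries carry the label T-47D, which names a breast cancer line of luminal type but was not borne out by several luminal markers in these libraries, and the cells of both were given 2 µg/ml of cisplatin, a platinum drug that crosslinks DNA. The control carries the genotype WT. In the FZR1 ko cells the gene FZR1, which encodes an activator of the APC/C ubiquitin ligase, was targeted with CRISPR/Cas9 and a line was grown from a single cell. There was 1 library per group, so no value has a replicate check and no test was made. An effect of the knockout, a difference between this clone and its parent cells, and a difference between 2 cultures cannot be told apart. The series design text speaks of 2 cell lines although both samples carry the same line label, so a difference between lines cannot be told apart from these either, and untreated cells were not analysed here.

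BCL2 proteins set whether the outer mitochondrial membrane is kept whole. BAX and BAK oligomerise in the membrane and form pores that release cytochrome c, and BOK is a related protein with similar activity that is under less control by the guardians. The guardians bind BAX and BAK as well as the BH3-only proteins, which start the process when cells are damaged. MCL-1 is a short-lived protein, while BCL-xL, the long product of BCL2L1, is stable. A shift of the balance towards the guardians is a known way for tumor cells to tolerate cytotoxic drugs.

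The values are FPKM, sequenced fragments relative to transcript length and library size, which can be compared between genes of a library. Each difference is the log2 ratio of FZR1 ko to control, taken after 1 FPKM was added to both values. It was computed for all 13554 genes that reached 1 FPKM in either library (genes kept), and their median was -0.0048. The addition of 1 FPKM understates the difference of low genes. FPKM holds no read counts. From the steps in the values of low genes, the depth was estimated at about 16900000 fragments in control and 16800000 in FZR1 ko, and it ranged from 16500000 to 19800000 when the assumed effective length was varied. FZR1 itself had 12.28 and 10.1 FPKM in control and FZR1 ko, a level that does not tell the 2 libraries apart. The cell line label is in doubt. Of 10 luminal marker genes, 5 were under 1 FPKM in both libraries, namely ESR1, PGR, GATA3, KRT19 and the E-cadherin gene CDH1, while the luminal keratin genes KRT8 (829.25 and 998.28 FPKM) and KRT18 (552.48 and 740.04 FPKM) were high. Of 8 basal or mesenchymal genes, 3 were under 1 FPKM in both, while VIM, which encodes vimentin, had 314.55 and 294.79 FPKM and CD44 had 65.66 and 59.44 FPKM. Of the 5 genes kept in each list, 1 differed at least 2-fold, against 13.5% of all genes kept. Both were higher in FZR1 ko. EPCAM, an epithelial adhesion protein, had 3.9 and 11.48 FPKM, and CDH2, which encodes N-cadherin, had 2.97 and 15.31 FPKM. Of the luminal genes kept, 3 were higher and 2 lower, with a median log2 ratio of 0.27. Of the basal or mesenchymal genes kept, 2 were higher and 3 lower, with a median of -0.093. The part of such differences in the values below was not tested. In bulk RNA, fewer cells that express a gene and less of its RNA in each cell cannot be told apart.

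The study designed qPCR primers for the pore former BAX. They are shown because they mark the stretch of its mRNA that the study chose for measuring this member, and they fall in different exons, so that the product spans a splice junction. They are written 5′ to 3′, with no base marked.
BAX forward: cccgagaggtctttttccgag
BAX reverse: ccagcccatgatggttctgat
The BAX primers matched chromosome 19 of hg38 exactly at 1 place each. The forward primer lay from 48956227 to 48956247 in exon 4 and the reverse primer from 48960837 to 48960857 in exon 5 of the 6 exons of the canonical GENCODE 44 transcript, both in coding sequence, with a product of 155 bases on the mRNA. They were both present in 10 of 12 annotated transcripts. The FPKM of a gene sums over all its isoforms, so it covers transcripts that these primers would miss.

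The members that were kept went in both directions. Of the 7 that reached 1 FPKM, 3 were higher and 4 were lower in FZR1 ko, with a median log2 ratio of -0.22, and 49.6% of all genes kept were higher. A difference of at least 2-fold was found for 1 of the 7, BCL2L1, which was higher. Of all genes kept, 13.5% passed this limit, 6.78% as higher and 6.72% as lower. At a limit of 1.5-fold 3 members passed (BCL2L1, BOK and MCL1), against 35.6% of all genes. These shares of the members are near those of all genes, and the counts are a description.

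**Figure D1:**
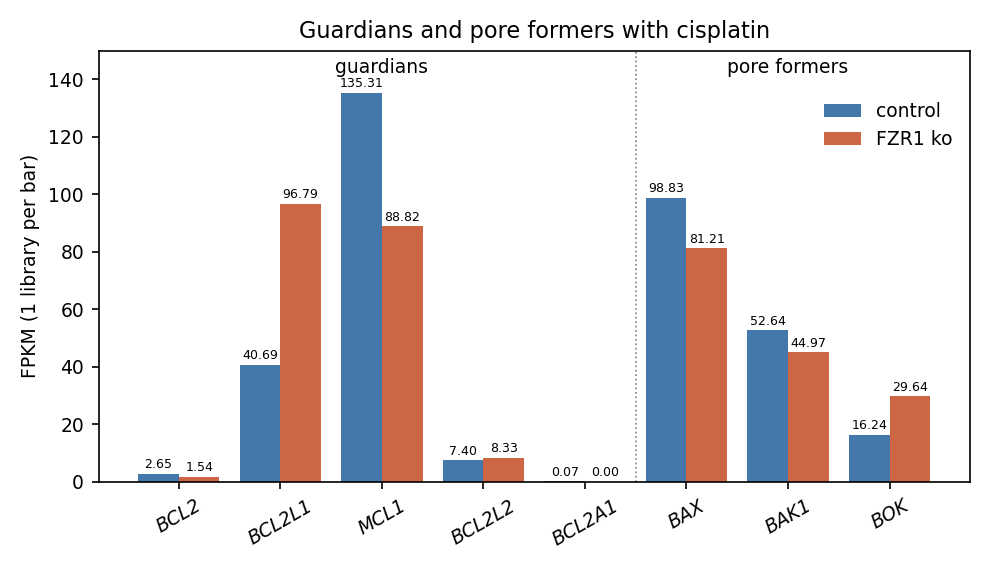
FPKM of the 8 genes (vertical axis, linear from 0) in the control library (blue) and the FZR1 ko library (orange), with guardians left and pore formers right of the dotted line and 1 library per bar. MCL1 was the highest guardian in control (135.31 FPKM) and BCL2L1 in FZR1 ko (96.79 FPKM), and BCL2A1 was at or near 0 in both.

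The guardian mRNAs had nearly the same sum in both libraries but a different make-up. Their sum was 186.1 FPKM in control against 195.5 FPKM in FZR1 ko, a ratio of 1.05. MCL1 gave 72.7% of this sum in control and 45.4% in FZR1 ko, while BCL2L1 gave 21.9% and 49.5%. The order of the leading pair was thus turned. For each unit of MCL1 there was 0.301 of BCL2L1 in control and 1.09 in FZR1 ko, a 3.62-fold shift. The remaining 3 guardians gave small shares in both libraries, at most 3.98% in control and 4.26% in FZR1 ko for any of them. These shares rest on how reads were divided between BCL2L2 and its readthrough gene. With the whole level of the readthrough gene credited to it, BCL2L2 gave 22.4% and 20.3% of the sum. That was above BCL2L1 in control (17.7%, and 41.2% in FZR1 ko), and MCL1 gave 58.8% and 37.8%. How much of the readthrough level came from BCL2L2 sequence was not tested.

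BCL2L1 (Entrez gene 598, chromosome 20 from 31664452 to 31723963 of GRCh38.p14) had 40.69 FPKM in control against 96.79 FPKM in FZR1 ko. The FZR1 ko library was the high one, by 2.38-fold (log2 ratio 1.23), and 3.78% of all genes kept had a higher log2 ratio. In the order of all genes by FPKM it stood at place 2387 in control and at place 858 in FZR1 ko. BCL2L1 also encodes the short isoform BCL-xS, which promotes apoptosis, and the values of a gene do not separate the isoforms. These levels would correspond to about 1761 and 4187 fragments on the canonical transcript, by the approximate depth, which bears on counting error only and not on the spread between cultures.

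MCL1 (Entrez gene 4170, chromosome 1 from 150574558 to 150579610) had 135.31 FPKM in control against 88.82 FPKM in FZR1 ko. It was lower in FZR1 ko by 1.52-fold (log2 ratio -0.60), a size that 16.9% of genes kept exceeded in the same direction. It remained among the higher mRNAs, at place 625 in control and place 938 in FZR1 ko. The gene also gives a short isoform with pro-apoptotic activity, which is included in this value.

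BCL2 (Entrez gene 596, chromosome 18 from 63123346 to 63320090), the founding guardian and the target of venetoclax, was low in both libraries. Its level was 2.65 FPKM in control against 1.54 FPKM in FZR1 ko (log2 ratio -0.52), or 1.72-fold lower without the added 1 FPKM. The canonical transcript is long, with 6881 bases, and these values would correspond to about 308 and 178 fragments. MCL1 exceeded BCL2 by 51.1-fold in control and 57.7-fold in FZR1 ko. For each unit of BAX there was 0.0268 of BCL2 in control and 0.0190 in FZR1 ko, so the ratio of BCL2 to BAX mRNA was lower in FZR1 ko, while that of BCL2L1 to BAX was higher, at 0.412 and 1.19.

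BCL2L2 (Entrez gene 599, chromosome 14 from 23306833 to 23311751), which encodes BCL-w, had 7.4 FPKM in control against 8.33 FPKM in FZR1 ko (log2 ratio 0.15). Its direction is uncertain. The readthrough gene BCL2L2-PABPN1 starts at the same base and runs to 23326163, and its level was 44.07 FPKM in control against 39.45 FPKM in FZR1 ko, far above BCL2L2. Reads in the shared exons had to be divided between these genes. The readthrough gene also runs past the end of BCL2L2, and the part of its level that came from BCL2L2 sequence was not tested. Taken as a sum, both genes had 51.47 FPKM in control against 47.78 FPKM in FZR1 ko (log2 ratio -0.11), lower and not higher in FZR1 ko.

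BCL2A1 (Entrez gene 597, chromosome 15 from 79960892 to 79971196), a guardian known from blood cells and melanoma and induced by NF-kB, was close to absent, with 0.07 FPKM in control, and the FZR1 ko library lists it at 0. The control value would correspond to about 1 fragment on its canonical transcript of 780 bases. It did not reach 1 FPKM in either library, so no ratio is given.

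**Figure D2:**
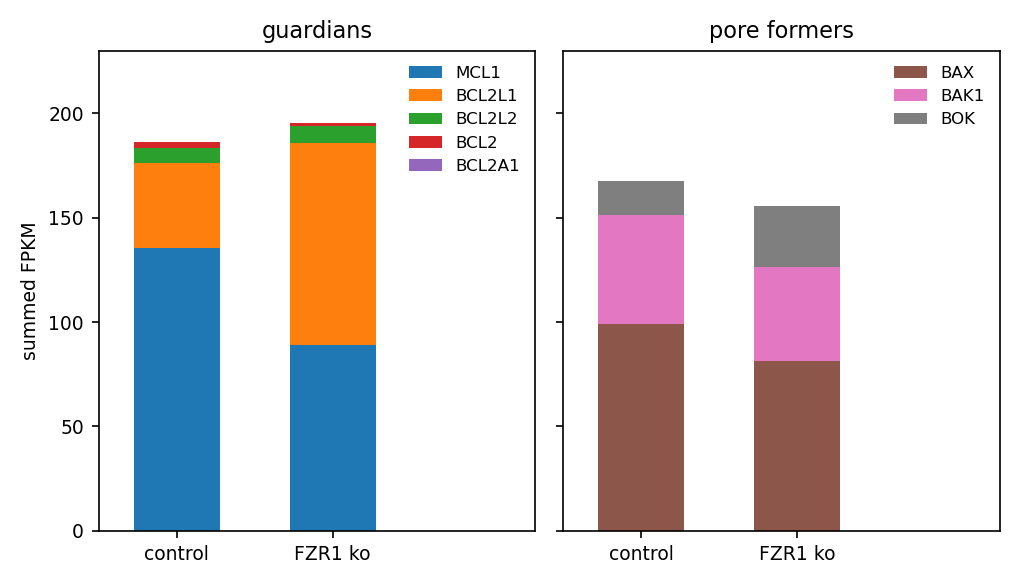
Summed FPKM (vertical axis, linear from 0) of the guardians and of the pore formers, stacked by gene, in 1 control and 1 FZR1 ko library. The guardian bars reach 186.1 and 195.5 FPKM with BCL2L1 taking 21.9% and 49.5% of them, and the pore former bars reach 167.7 and 155.8 FPKM.

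The pore former mRNAs had a slightly lower sum in FZR1 ko, with BAX and BAK1 lower and BOK higher. Their sum was 167.7 FPKM in control against 155.8 FPKM in FZR1 ko, a ratio of 0.929. BAX (Entrez gene 581, chromosome 19 from 48954875 to 48961798), a p53 target whose protein moves from the cytosol to mitochondria, had 98.83 FPKM in control against 81.21 FPKM in FZR1 ko (log2 ratio -0.28). BAK1 (Entrez gene 578, chromosome 6 from 33572552 to 33580276), whose protein resides in the outer membrane, had 52.64 against 44.97 FPKM (log2 ratio -0.22). Both were lower in FZR1 ko, by 1.22-fold and 1.17-fold, and they kept nearly the same ratio to each other, with 1.88 of BAX for each unit of BAK1 in control and 1.81 in FZR1 ko. A lower log2 ratio than that of BAX was found for 32.6% of genes kept, and a lower one than that of BAK1 for 35.9%.

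BOK (Entrez gene 666, chromosome 2 from 241551393 to 241574131), whose protein is degraded through the endoplasmic reticulum pathway, had 16.24 FPKM in control against 29.64 FPKM in FZR1 ko. It was higher in FZR1 ko by 1.83-fold (log2 ratio 0.83), below the 2-fold limit, and 10.3% of genes kept had a higher log2 ratio. Its share of the pore former sum was 9.68% in control and 19.0% in FZR1 ko. BOK-AS1, an antisense RNA that overlaps it, had 0.15 and 0.23 FPKM, and the sources used here do not state whether reads were assigned by strand. With all members together, there was 1.11 of guardian mRNA for each unit of pore former mRNA in control and 1.25 in FZR1 ko, a 1.13-fold difference. The direction of this difference depended on single genes. The ratio in FZR1 ko over that in control was 2.26 without MCL1, 0.730 without BCL2L1 and 0.970 without BAX, each left out alone.

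**Figure D3:**
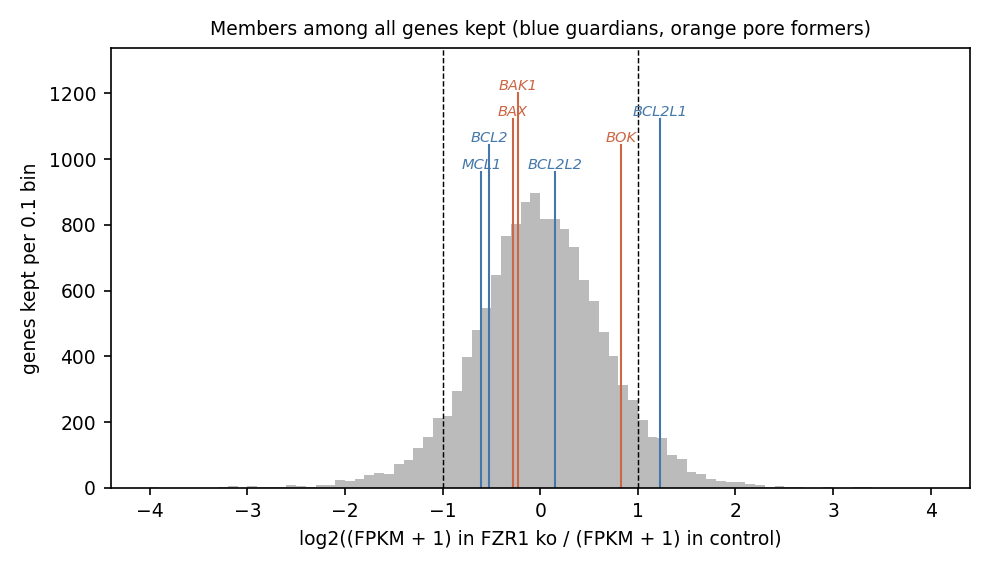
Number of genes kept (vertical axis) per bin of the log2 ratio of FZR1 ko to control (horizontal axis, 1 library per group), with the 7 members kept drawn as lines, guardians in blue and pore formers in orange, and dashed lines at 2-fold. BCL2L1 at 1.23 is the member beyond the dashed lines, BOK at 0.83 lies inside them, and BAX at -0.28 and BAK1 at -0.22 lie in the body of the distribution.

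The starts of 6 of the 8 members were in the RefSeq promoter table of GRCh38.p14, while MCL1 and BCL2L2 were not matched. The 250 bases before the start of BCL2L1, the member with the largest difference, and of BAX and BAK1, the pair that kept its ratio, are shown so that their make-up can be compared. Each is given 5′ to 3′ on the strand of the gene, with matches to the searched motifs in capitals. The motifs were the CCAAT box, the GC box with the letters GGGCGG, the TATA box with the letters TATAAA, the E-box with the letters CACGTG and the p53 half-site, each on both strands, so that a CCAAT box on the other strand reads ATTGG and a GC box CCGCCC. They were chosen after the sequences were seen.
BCL2L1: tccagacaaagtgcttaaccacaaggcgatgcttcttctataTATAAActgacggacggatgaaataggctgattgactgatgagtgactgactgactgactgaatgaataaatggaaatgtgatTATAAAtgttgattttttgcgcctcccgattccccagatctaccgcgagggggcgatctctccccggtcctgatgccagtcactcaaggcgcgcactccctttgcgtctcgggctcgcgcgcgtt
BAX: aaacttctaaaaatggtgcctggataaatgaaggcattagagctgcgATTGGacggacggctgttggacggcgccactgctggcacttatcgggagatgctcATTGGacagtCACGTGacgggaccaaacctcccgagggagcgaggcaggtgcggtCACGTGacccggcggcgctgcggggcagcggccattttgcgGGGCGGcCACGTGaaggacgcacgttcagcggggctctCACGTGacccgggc
BAK1: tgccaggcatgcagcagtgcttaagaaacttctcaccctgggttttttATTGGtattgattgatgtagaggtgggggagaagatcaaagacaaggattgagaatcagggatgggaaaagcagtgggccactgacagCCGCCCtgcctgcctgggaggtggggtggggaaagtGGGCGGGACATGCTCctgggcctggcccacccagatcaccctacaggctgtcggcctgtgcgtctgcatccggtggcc
The BCL2L1 window (chr20:31723964-31724213, minus strand) had a GC content of 50% and held TATAAA at 2 places, starting 208 and 125 bases before the start site, and no match to the other motifs. The gene has another start listed at 31722868, whose window held none of the 5 motifs. The BAX window (chr19:48954625-48954874, plus strand) had a GC content of 62.8% and held 4 E-boxes, starting 138, 93, 45 and 14 bases before the start, 2 CCAAT boxes and 1 GC box. The BAK1 window (chr6:33580277-33580526, minus strand) had a GC content of 58% and held 1 CCAAT box, 2 GC boxes and 1 p53 half-site, which starts 73 bases before the start on the last base of a GC box. Among all 35116 windows of this length in the table, 32% held a CCAAT box, 42.6% a GC box, 10.7% TATAAA, 6.34% CACGTG and 5.57% a p53 half-site. A match describes these letters and is not evidence of a bound site.

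The BH3-only genes, whose products bind the guardians, were mostly lower in FZR1 ko, 2 of them only slightly. Of 8 genes 7 were kept, with 6 lower and 1 higher and a median log2 ratio of -0.69, against -0.0048 for all genes kept. Among all genes kept, 49.6% were higher and 13.5% passed 2-fold in either direction. The median of the BH3-only genes ranged from -0.78 to -0.27 over the other pseudocounts, filters and scalings tried. PMAIP1, which encodes NOXA, a p53 target that binds MCL-1 by preference, was the highest of them in control and the only one past 2-fold on this scale. Its level was 127.55 FPKM in control against 26.38 FPKM in FZR1 ko, 4.84-fold lower (log2 ratio -2.23). For each unit of its partner MCL1 there was 0.943 of PMAIP1 in control and 0.297 in FZR1 ko, so PMAIP1 mRNA differed more than MCL1 mRNA. BCL2L11, which encodes BIM, had 34.23 and 17.4 FPKM (-0.94), and BBC3, which encodes the p53 target PUMA, had 24.48 and 14.22 FPKM (-0.74). BMF, a low gene, passed 2-fold only without the added 1 FPKM, with 2.14 and 0.94 FPKM (2.28-fold lower). BAD, whose product binds BCL-2, BCL-xL and BCL-w, had 18.73 and 27.21 FPKM (0.52). BIK and BID were the nearest to no difference, with 13.22 and 12 FPKM (-0.13) for BIK and 22.96 and 21.72 FPKM (-0.077) for BID. BMF, BCL2L11, BBC3, BAD, BIK and BID were named after their values were seen. HRK did not reach 1 FPKM, with 0.52 and 0.63 FPKM, and was also named after its values were seen. The 8 genes summed to 243.8 FPKM in control, above the guardian sum of 186.1 FPKM, and to 120.5 FPKM in FZR1 ko, below the guardian sum of 195.5 FPKM. Most of this difference was that of PMAIP1, and without PMAIP1 the BH3-only sum lay below the guardian sum in both libraries.

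The remaining BCL2-like genes were low or lower in FZR1 ko. Of 5 genes 3 were kept, all 3 of them lower, with a median log2 ratio of -0.40 and none past 2-fold. Among all genes kept, 49.6% were higher and 13.5% passed 2-fold. Over all 5 BCL2-like genes, with no filter on low values, the median was -0.097. BCL2L12 was the highest, with 41.2 FPKM in control against 30.97 FPKM in FZR1 ko. BCL2L10 had 0.1 and 0.04 FPKM, and BCL2L14 was listed at 0 in both. Both were named with their values already known.

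The genes that act after pore formation also lay mostly below 0 on the log2 scale. All 10 were kept. In FZR1 ko 7 were lower and 3 higher, none of them past 2-fold, and their median was -0.23. Among all genes kept, 49.6% were higher, 13.5% passed 2-fold and the median was -0.0048. CYCS, which encodes cytochrome c, was the highest of the list, with 105.97 FPKM in control against 67.49 FPKM in FZR1 ko (-0.64). AIFM1, a flavoprotein of the mitochondrial intermembrane space, had 21.96 and 33.59 FPKM (0.59). AIFM1 was named after its values were seen.

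Factors that bind the members' proteins or control their turnover differed in both directions. All 7 genes were kept. In FZR1 ko 4 were higher and 3 lower, and the median was 0.027, while 49.6% of all genes kept were higher. Of the 7 genes 2 passed 2-fold, against 13.5% of all genes kept. This pair act on MCL-1 protein in opposite ways. HUWE1, a ubiquitin ligase for MCL-1, had 13.76 FPKM in control against 33.44 FPKM in FZR1 ko (log2 ratio 1.22). USP9X, a deubiquitinase that stabilises MCL-1, had 5.03 and 12.73 FPKM (1.19). Their canonical transcripts have 14731 and 12543 bases. Protein-coding genes with transcripts of at least 10000 bases (419 genes kept) showed a median of 0.33, and those with 2000 to 4000 bases, where BCL2L1, MCL1, BCL2L2, BAK1 and BOK lie, showed one of -0.036 over 4198 genes. The part of transcript length in these differences was not tested. TMBIM6, also called BAX inhibitor-1, was the highest of the list, with 323.08 and 202.05 FPKM (-0.67). VDAC2, the channel that holds BAK at mitochondria, had 267.24 and 212.1 FPKM (-0.33). VDAC2 was named after its values were seen.

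**Figure D4:**
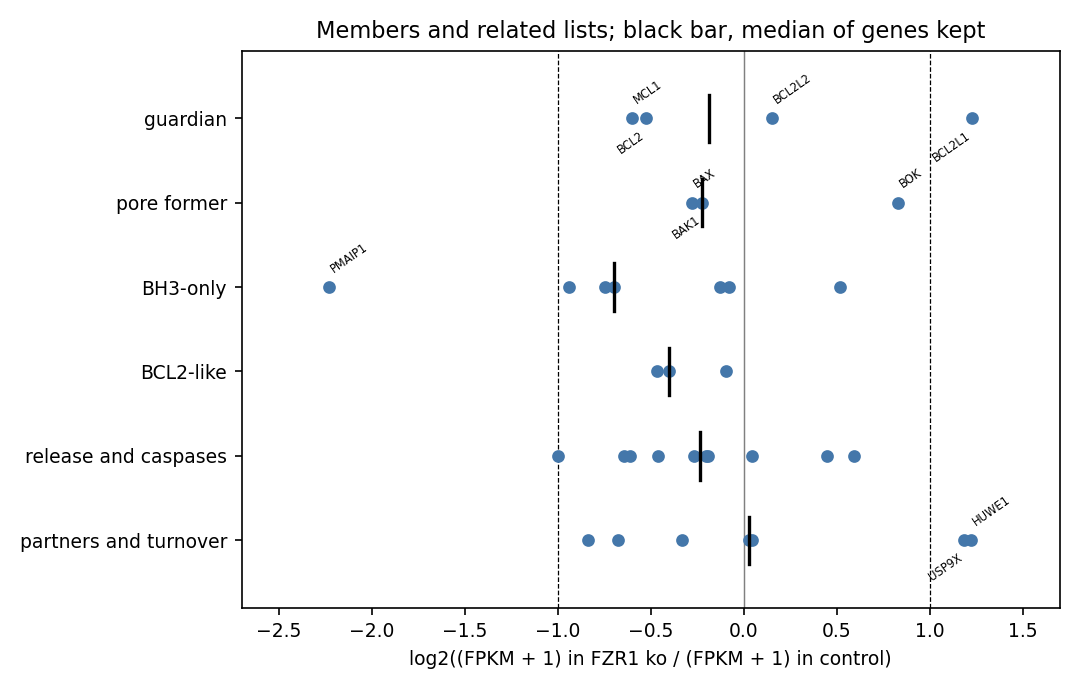
Log2 ratio of FZR1 ko to control (horizontal axis, 1 library per group) of each gene kept, in rows for the guardians, the pore formers and the 4 related lists, with a black bar at the median of each row and dashed lines at 2-fold. Names are given for the members and for genes past 2-fold. The medians run from -0.69 for the BH3-only genes to 0.027 for the partners and turnover factors, and PMAIP1 at -2.23 lies farthest from 0.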

How the data were processed

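RNAseq of total RNA from 1 control and 1 FZR1 ko library, grouped by their genotype labels, was used. Reads came from the BGISEQ-500 platform. The authors aligned them to the hg38 transcriptome and quantified them with RSEM. The submitters' processing notes also name Trimmomatic 0.36, HISAT2 2.1.0 and Bowtie2 2.2.5, and the methods text gives another Bowtie2 version. The annotation version, fragment length and use of strand are not given in the sources used here. The deposited values are FPKM by Entrez gene, to 2 decimals. Of 24663 rows 1630 had no value, and 99.5% of the other IDs matched RefSeq of GRCh38.p14. From these FPKM, log2 ratios with a pseudocount of 1 FPKM were computed for genes that reached 1 FPKM in either library. With 1 library per group no test was made. The computation of ratios and of depth was tested on simulated data with known answers, which says nothing about the spread between cultures.

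Depth was estimated from 244 genes in control and 247 in FZR1 ko with a single GENCODE 44 transcript of 500 to 1200 bases, by the step whose multiples the values followed best. Of these values 61.5% and 61.9% lay within 0.2 of a whole number of fragments (40% if evenly spread), so the estimate is approximate.

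The members and lists were chosen with earlier results of these data known. Named genes were all members, FZR1, genes sharing reads with a member, and of each related list the genes past 2-fold and the gene highest in control, besides cell type markers. Genes outside this rule are marked in the text as named after their values were seen. Some items that are withheld are not reported here. Likeness of pattern between genes was not computed from 2 libraries. Promoters are from RefSeq, GRCh38.p14, and matched hg38. Python 3.11.15, numpy 2.4.6, pandas 2.3.3 and matplotlib 3.10.9 were used.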

Additional observations from a re-analysis of the deposited data

How the results depend on the processing

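The log2 ratios, the medians and the counts past 2-fold were recomputed with a pseudocount of 0.1 or 5 FPKM, without a filter on low values, with at least 1 FPKM in both libraries, centred on the median, and rescaled to a sum of 1000000. The sums, shares and ratios between genes use no pseudocount, and the sums and shares were recomputed only with members added or left out. Of 242 values, 220 kept their direction and their side of 2-fold, or for counts and sums stayed within 1.5 times. BCL2L1 ranged from 1.16 to 1.25, BOK from 0.71 to 0.86, MCL1 from -0.61 to -0.58 and BCL2, the low member, from -0.75 to -0.23. The count of 1 member past 2-fold became 3 at 1.5-fold and 0 at 4-fold, by construction. With a pseudocount of 0.1 FPKM, 2 BH3-only genes in place of 1 passed 2-fold, with BMF at -1.11, and 1 of the genes that act after pore formation in place of 0, as it also did when rescaled. With 5 FPKM, 1 partner or turnover gene in place of 2 did, with USP9X at 0.82, and EPCAM had 0.89. The alternatives for single genes that are no members and for the counts of the related lists were chosen after seeing the data, and so were those that follow, except the one without MCL1 and BAX together. The guardian to pore former ratio of 1.11 in control and 1.25 in FZR1 ko, a 1.13-fold shift, became 0.738 and 1.43 without MCL1 and BAX (1.94-fold), 0.303 and 0.685 without MCL1 (2.26-fold), 0.867 and 0.633 without BCL2L1 (0.730-fold), and 2.70 and 2.62 without BAX (0.970-fold). With all of BCL2L2-PABPN1 added, BCL2L2 had a log2 ratio of -0.11 in place of 0.15, since the readthrough gene was lower in FZR1 ko. The share of BCL2L2 in the guardian sum was then 22.4% and 20.3% in place of 3.98% and 4.26%. No paired analysis was possible because there is a single library in each group, and no replicate could be left out either. BCL2A1, listed at 0 in FZR1 ko, was given no ratio, and its read counts are unknown.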
